A study of Mus musculus with 36 samples.

Results

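The 49 genes described here carry out DNA replication, mitosis and cytokinesis. They were chosen by name, with earlier results of these data known, as a list of cell cycle genes without the kinesin motors. All 49 are among the 55487 genes of the count table. By textbook role, 15 of them act in S phase (cyclins E, the transcription factor E2f1, the Mcm2 to Mcm7 helicase, the clamp Pcna, the nucleotide enzymes Rrm1, Rrm2, Tk1 and Tyms, and the histone chaperone Asf1b). The other 34 act in G2 and mitosis. Cenpe, which encodes a kinesin-like motor of the kinetochore, is on the list and was kept.

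RNA was sequenced from the unmyelinated optic nerve (UON, the nerve head just behind the globe), the myelinated optic nerve (MON) and the retina of C57BL/6 mice aged 2 to 4 months, in 36 libraries. The groups of each tissue were naïve mice with no operated eye, optic nerve crush at 3 days (3D) and 2 weeks (2W), and glaucoma, that is ocular hypertension after microbeads were put in the anterior chamber of 1 eye, at 3D, 2W and 6 weeks (6W). Each group of each tissue had n = 2 pools, 1 of 2 female and 1 of 2 male mice, the same mice gave all 3 tissues, and the segment with the myelin transition zone between UON and MON was discarded. Sex and mice cannot be told apart between 2 pools, and p-values measure only the spread between these pools.

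A cell that divides copies its DNA in S phase and separates the copies in mitosis. The kinase Cdk1 with cyclins A and B starts mitosis, the Aurora and Polo kinases and the kinetochore attach chromosomes to the spindle, the anaphase-promoting complex with Cdc20 and Ube2c ends it, and Anln, Ect2, Racgap1 and Prc1 help to cut the cell apart. E2F factors switch on S-phase genes, and the B-Myb and Foxm1 factors together with NF-Y, which binds CCAAT letters, switch on the mitotic genes. Most glia of the adult optic nerve do not divide, and microglia, astrocytes and oligodendrocyte precursors are the cells known to divide there after injury.

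The libraries held 16158723 to 78054205 estimated counts. Levels are given as CPM, counts scaled to library size with trimmed mean (TMM) factors over all 36 libraries, and in each pair of values the female pool comes first. Summed levels of marker lists fitted the tissue labels: 8 markers of mature oligodendrocytes reached 47367 to 167544 CPM in MON, 3644 to 44795 in UON and 76.4 to 142 in retina, and 7 photoreceptor markers reached at least 51100.3 CPM in retina and at most 337 in either nerve tissue. Several libraries stood apart. Surface epithelium markers (8 keratins and related genes) summed to 2231 CPM in the male MON pool at glaucoma 2W and 2842 in the female MON pool at glaucoma 6W, against at most 12.6 in the other MON libraries. In UON at crush 2W, the oligodendrocyte sum was 25559 CPM in the female and 3644 in the male pool. That male pool had 58461609 counts but only 21317 genes with any count, the fewest of the 36 libraries, against 24293 in the female pool. In these bulk samples fewer dividing cells and less RNA per cell cannot be told apart.

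In MON at crush 3D, 46 of the 49 genes rose and none fell by edgeR's quasi-likelihood test, where a call needs both a log2 fold change past 1 in either direction and an adjusted p under 0.05. In the same comparison 3.61% of all 19988 genes tested were called higher. The median log2 fold change of the 49 was 4.48, or 22.2-fold, beside -0.00490 over all genes tested. The largest rise was that of Rrm2, the small subunit of ribonucleotide reductase, which makes deoxynucleotides for DNA synthesis, at 6.81 (SE 0.51, adjusted p = 0.00533). Without adjustment, 48 had p under 0.05 and were higher, against 12.4% of all genes, and DESeq2 called 47 higher, against 7.35%. For 48 genes both crush pools lay above both naïve pools, which was so for 24.8% of all genes.

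Members of every role group rose. Among cyclins and their kinase, 8 of 8 rose: Ccnb2 (cyclin B2) by 6.53 (SE 0.95) on the log2 scale, Cdk1 by 6.01 (SE 0.52), Ccna2 by 5.30 (SE 0.36), Ccnb1 by 5.07 (SE 0.38), the cyclins E Ccne1 by 4.70 (SE 0.71) and Ccne2 by 2.22 (SE 0.46), Ccnf by 4.22 (SE 0.50) and the Cdk1-activating phosphatase Cdc25c by 4.42 (SE 0.74). All 4 genes of the spindle checkpoint and anaphase complex rose, the ubiquitin-conjugating enzyme Ube2c by 6.52 (SE 0.97), the checkpoint kinases Bub1 by 5.71 (SE 0.95) and Bub1b by 4.71 (SE 0.58), and Cdc20 by 5.15 (SE 0.46). The 5 mitotic kinases Plk1, Aurkb, Pbk, Aurka and Nek2 rose by 4.53 to 6.08. All 7 genes of the chromosomal passenger complex, centromere and kinetochore rose, from Cenpe at 3.52 (SE 0.50) and Cdca8 at 3.97 (SE 0.44) to Ndc80, which grips the microtubule, at 6.05 (SE 1.20). Of the 9 spindle and cytokinesis genes, 8 rose (Racgap1, Nusap1, Ckap2, Tpx2, Gtse1, Ect2, Prc1 and Hmmr, by 3.76 to 5.36) and Anln did not. The chromatin genes Top2a and Mki67 rose by 5.68 (SE 0.45) and 5.98 (SE 0.56), and the factors Foxm1 and E2f1 by 4.56 (SE 0.56) and 3.06 (SE 0.53).

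The log2 fold changes of the S-phase genes were mostly the smaller ones, but their levels were higher. The median level of the S-phase genes was 6.73 and 7.33 CPM in naïve MON and 67.7 and 80.7 at crush 3D. That of the mitotic genes was 1.97 and 1.503 CPM, and then 38.9 and 47.3. The median log2 fold change was 2.78 over the 15 S-phase genes, of which 13 were called, and 4.86 over the 34 mitotic genes, of which 33 were called. The difference between these medians is a description and was not tested. The nucleotide enzymes Tk1, Tyms and Rrm1 rose by 3.70 (SE 0.77), 2.78 (SE 0.41) and 1.93 (SE 0.37), and Asf1b, which hands histones to new DNA, by 4.40 (SE 0.44). Of the helicase genes, Mcm5 rose by 3.32 (SE 0.41), Mcm2 by 3.08 (SE 0.38), Mcm6 by 2.62 (SE 0.30), Mcm3 by 2.50 (SE 0.31) and Mcm7 by 1.53 (SE 0.29). Not called were Mcm4 at 1.21 (SE 0.31, adjusted p = 0.0774), the sliding clamp Pcna at 1.02 (SE 0.27, adjusted p = 0.0881) and Anln, an actin-binding protein of the contractile ring, at -0.62 (SE 0.29, adjusted p = 0.279).

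The promoters of the 3 mitotic and 3 S-phase genes with the largest log2 fold change in MON at crush 3D that have a RefSeq window are shown because the genes moved together. Windows came from RefSeq on GRCm38.p6, reach 250 bases before the RefSeq start at most and end before the gene of the authors' annotation begins. Capitals mark CCAAT or its reverse complement ATTGG, the letters TTTGAA (the core of the cell cycle homology region) or its reverse complement TTCAAA, and the E2F letters TTTGGCGC, TTTCCCGC, TTTCGCGC and TTTGCCGC, searched on both strands. Neighbouring matches in Ube2c overlap.
Ccnb2, chr9:70421555-70421804 (minus strand): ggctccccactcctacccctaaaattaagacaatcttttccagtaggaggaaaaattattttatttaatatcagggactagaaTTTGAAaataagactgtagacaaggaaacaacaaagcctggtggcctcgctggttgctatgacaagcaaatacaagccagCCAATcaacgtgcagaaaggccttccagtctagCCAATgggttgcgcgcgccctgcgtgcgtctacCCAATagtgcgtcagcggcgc
Ube2c, chr2:164769679-164769897 (plus strand): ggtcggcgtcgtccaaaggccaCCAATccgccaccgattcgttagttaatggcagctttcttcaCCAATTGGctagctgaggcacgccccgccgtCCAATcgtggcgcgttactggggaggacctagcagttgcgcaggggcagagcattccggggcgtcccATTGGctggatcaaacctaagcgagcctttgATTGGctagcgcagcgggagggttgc
Plk1, chr7:122159185-122159434 (plus strand): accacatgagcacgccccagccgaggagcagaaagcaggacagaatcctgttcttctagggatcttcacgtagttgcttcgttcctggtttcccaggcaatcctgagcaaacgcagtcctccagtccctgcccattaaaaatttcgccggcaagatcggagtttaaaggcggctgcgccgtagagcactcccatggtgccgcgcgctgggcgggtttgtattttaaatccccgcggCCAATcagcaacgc
Rrm2, chr12:24708004-24708240 (plus strand): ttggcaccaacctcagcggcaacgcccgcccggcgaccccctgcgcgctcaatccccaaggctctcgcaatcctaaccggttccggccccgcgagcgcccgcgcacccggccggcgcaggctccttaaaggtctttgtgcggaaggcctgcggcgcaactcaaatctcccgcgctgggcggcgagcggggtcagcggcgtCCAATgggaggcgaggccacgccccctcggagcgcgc
Ccne1, chr7:38107535-38107740 (minus strand): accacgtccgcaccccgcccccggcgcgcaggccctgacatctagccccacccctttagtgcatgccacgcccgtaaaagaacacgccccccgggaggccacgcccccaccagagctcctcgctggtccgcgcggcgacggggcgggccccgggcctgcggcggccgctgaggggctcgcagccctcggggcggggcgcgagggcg
Asf1b, chr8:83955444-83955506 (plus strand): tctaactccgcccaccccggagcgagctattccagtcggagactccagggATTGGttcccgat

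CCAAT occurred 3 times in the Ccnb2 window, 6 times in that of Ube2c, and once each in those of Plk1, Rrm2 and Asf1b, and none of the letters occurred in the Ccne1 window. Over the full 250 bases, 41 of the 49 genes had a window (not Foxm1, Aurkb, Ccne2, Mcm4, Ccna2, Cdc25c, Tpx2 and Pbk). CCAAT was in the windows of 32 of them (78.05%), against 37.5% of 27025 genes with a window. Split by phase, it was in 23 of 28 mitotic genes (82.1%) and 9 of 13 S-phase genes (69.2%). TTTGAA was in 12 of 41 (29.3%) against 18.3%, CCAAT and TTTGAA together in 12 of 41 (29.3%) against 6.45%, and the E2F letters in 4 of 41 (9.76%) against 2.16%. Matches are descriptions of these letters and say nothing on binding.

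In single MON libraries, Mki67, the chromatin protein used to mark cycling cells (chr7:135689784-135716361, minus strand, GRCm38), was at 2.34 and 1.32 CPM in naïve MON and at 83.5 and 118 at crush 3D, 18.5 and 6.41 at crush 2W, 42.4 and 6.67 at glaucoma 3D, 2.87 and 2.61 at glaucoma 2W and 9.85 and 1.12 at glaucoma 6W. Top2a, the topoisomerase that untangles copied DNA (chr11:98992943-99024189, minus strand), was at 1.97 and 3.07 CPM in naïve MON, then 98.8 and 141 at crush 3D, 22.6 and 13.9 at crush 2W, 58.0 and 6.69 at glaucoma 3D, 5.60 and 1.08 at glaucoma 2W and 9.26 and 3.10 at glaucoma 6W. For Cdk1 the naïve pools held 1.78 and 0.541 CPM, and the injured ones 60.2 and 71.1 at crush 3D, 12.5 and 6.77 at crush 2W, 31.4 and 3.88 at glaucoma 3D, 3.00 and 1.51 at glaucoma 2W and 3.95 and 0.968 at glaucoma 6W. In all 3 genes both crush 3D pools stood above every other MON library, and the female glaucoma 3D pool came next.

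Ccnb1 was at 2.94 and 1.68 CPM in naïve MON, then 77.9 and 62.3 at crush 3D, 11.8 and 4.997 at crush 2W, 40.8 and 7.55 at glaucoma 3D, 2.05 and 1.72 at glaucoma 2W and 5.75 and 0.174 at glaucoma 6W. Birc5 (survivin, of the chromosomal passenger complex) was at 0.923 and 2.71 CPM in naïve MON, then 44.6 and 55.1 at crush 3D, 6.93 and 2.24 at crush 2W, 23.4 and 2.92 at glaucoma 3D, 1.55 and 0.447 at glaucoma 2W and 2.06 and 1.22 at glaucoma 6W. Cenpa, the histone H3 variant that marks centromeres, was at 2.05 and 1.86 CPM in naïve MON, then 42.4 and 55.6 at crush 3D, 11.6 and 3.98 at crush 2W, 24.7 and 2.78 at glaucoma 3D, 3.64 and 2.78 at glaucoma 2W and 2.96 and 1.66 at glaucoma 6W. At glaucoma 2W and 6W no pool exceeded 5.75 CPM in these 3 genes, while each crush 3D pool held at least 42.4 CPM.

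Rrm2 (chr12:24708241-24714146, plus strand) started at 0.764 and 1.08 CPM in naïve MON and read 87.1 and 99.4 at crush 3D, 10.2 and 4.90 at crush 2W, 48.9 and 3.38 at glaucoma 3D, 3.10 and 1.53 at glaucoma 2W and 5.23 and 3.08 at glaucoma 6W. Cyclin E1, from Ccne1, was at 0.478 and 1.02 CPM in naïve MON, then 13.0 and 22.6 at crush 3D, 7.37 and 3.16 at crush 2W, 11.01 and 2.03 at glaucoma 3D, 0.910 and 1.60 at glaucoma 2W and 2.27 and 1.53 at glaucoma 6W. Mcm5 was at 6.73 and 7.33 CPM in naïve MON, then 51.7 and 80.7 at crush 3D, 22.3 and 12.9 at crush 2W, 29.2 and 11.3 at glaucoma 3D, 9.29 and 7.13 at glaucoma 2W and 10.02 and 8.42 at glaucoma 6W. Unlike these, Pcna started high, at 68.4 and 71.0 CPM in naïve MON, and read 129 and 137 at crush 3D, 76.0 and 55.7 at crush 2W, 102 and 59.9 at glaucoma 3D, 52.5 and 55.5 at glaucoma 2W and 74.3 and 78.1 at glaucoma 6W. Its crush 3D pools lay above both naïve pools, and its crush 2W pools on either side of them.

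Anln went the other way in MON. It was at 325 and 245 CPM in naïve MON and at 186 and 162 at crush 3D, 113 and 139.9 at crush 2W, 241 and 200.2 at glaucoma 3D, 222 and 237 at glaucoma 2W and 273 and 360.4 at glaucoma 6W. Both pools lay below both naïve pools at crush 3D and 2W and at glaucoma 3D and 2W, but not at glaucoma 6W, and Anln was the gene with the lowest log2 fold change in MON at crush 3D, crush 2W and glaucoma 3D. Over its transcripts, 1.55% of the MON counts of Anln were of non-coding type. Here that is any type other than protein-coding in a Gencode release older than that of the authors. Mature oligodendrocyte markers were lower at crush 3D too, from 167544 and 125399 CPM summed over 8 genes in naïve MON to 88121 and 73301. None of the 8 was called there. At glaucoma 3D the marker sum was higher in the male pool, while Anln was higher in the female pool. The part of these cells in the values of Anln was not tested.

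On the TPM scale, which corrects for transcript length and so allows genes to be compared, the highest of the 49 in MON at crush 3D were Pcna (151 TPM, mean of 2 pools), Ube2c (102), Birc5 (81.1), Rrm2 (76.5) and Cdc20 (76.0). In naïve MON the order was Anln (102), Pcna (72.2), Mcm7 (18.4), Mcm4 (14.9998) and Rrm1 (14.9). At crush 2W, Pcna (77.0) and Anln (55.1) again led.

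**Figure D1:**
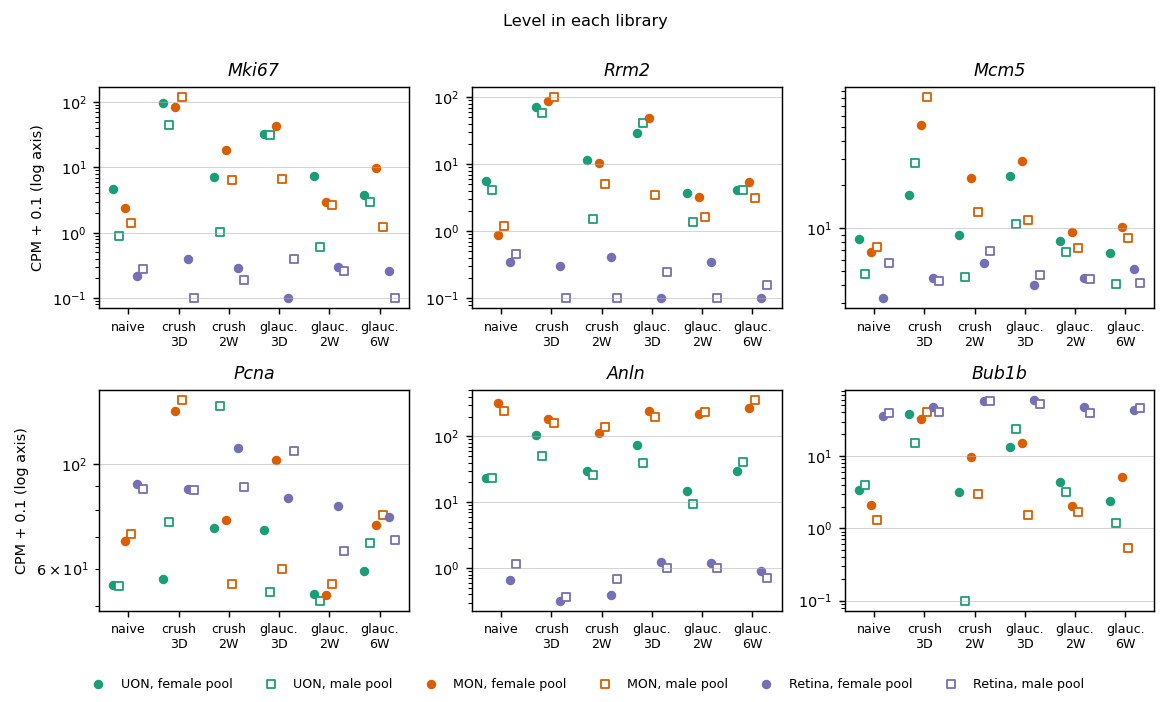
Levels of Mki67, Rrm2, Mcm5, Pcna, Anln and Bub1b in each of the 36 libraries, as CPM plus 0.1 on a log axis, by tissue and group, with 1 point for each pool. For Mki67 and Rrm2 the 4 nerve pools at crush 3D were the highest of the 36 libraries, Pcna was at 51.2 CPM or more in each, Anln was highest in MON, and Bub1b was higher in naïve retina (35.7 and 39.1 CPM) than in naïve nerve.

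The calls in MON at crush 3D rested on the naïve pools. Without the female crush 3D pool 45 genes were called higher and without the male one 41, but without either naïve MON pool none was, although 48 of 49 log2 fold changes stayed above 0, with medians of 4.36 without the female and 4.78 without the male naïve pool. Those fits compare with a single naïve library, which is assumed to vary like the other groups.

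At crush 2W in MON, 8 genes were still higher than in naïve MON and none was lower, where 2.13% of all genes tested were called higher. They were Rrm2 at 3.09 (SE 0.46, adjusted p = 0.0275), Plk1 at 3.09 (SE 0.42, adjusted p = 0.0215), Cdk1 at 3.07 (SE 0.47, adjusted p = 0.0291), Top2a at 2.94 (SE 0.41, adjusted p = 0.0223), Mki67 at 2.72 (SE 0.50, adjusted p = 0.0401), Aurkb at 2.67 (SE 0.42, adjusted p = 0.0313), Cdc20 at 2.11 (SE 0.41, adjusted p = 0.0465) and Ccnb1 at 1.84 (SE 0.34, adjusted p = 0.0412). Only Rrm2 of these is an S-phase gene. The median log2 fold change was 1.54 over all 49, 1.77 over the mitotic and 1.03 over the S-phase genes. Before adjustment 34 were higher with p under 0.05, against 10% of all genes, and 1, Anln, was lower, against 5.99%. DESeq2 called 24 higher, against 6.01%, and Anln lower, against 3.07%. Both crush 2W pools lay above both naïve pools for 38 genes, against 24.1% of all genes. With all 36 libraries in 1 fit none of the 49 was called, where 458 of 30097 genes were called higher.

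The largest log2 fold change at crush 2W, that of Bub1, was not called: 3.27 (SE 0.92, adjusted p = 0.123), with 0.239 and 0.481 CPM in naïve MON and 5.80 and 1.10 at crush 2W. The lowest was that of Anln, -1.12 (SE 0.29, adjusted p = 0.103). The female crush 2W pool was the higher one for 31 of 34 mitotic and 13 of 15 S-phase genes. The count of calls changed with the pools, to 29 (28 higher, 1 lower) without the male crush 2W pool, 5 without the female one, and 0 without either naïve MON pool.

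From 3D to 2W after crush, all 49 differences in MON were below 0, with a median log2 difference of -2.83. Ccna2 fell by 3.77 on the log2 scale (SE 0.33, adjusted p = 0.0181), Pbk, a mitotic kinase, by 3.46 (SE 0.35, adjusted p = 0.0322) and Ccnb1 by 3.23 (SE 0.35, adjusted p = 0.0376). These 3 were called lower, against 0.06% of all genes tested. Before adjustment 47 were lower with p under 0.05, against 5.68% of all genes, and DESeq2 called 42 lower, against 2.44%. Leaving out any 1 of the pools raised the count, to 43 without the female 2W pool, 20 without the male 2W pool, 20 without the female 3D pool and 16 without the male 3D pool.

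**Figure D2:**
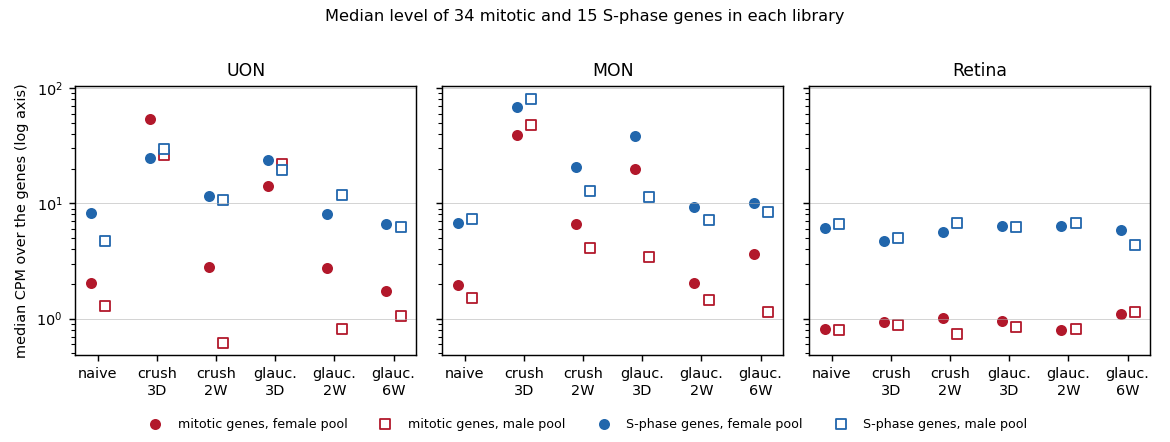
Median CPM over the 34 mitotic and the 15 S-phase genes in each of the 36 libraries (log axis), with 1 panel for each tissue and 1 point for each pool. The mitotic median was 38.9 and 47.3 CPM in MON at crush 3D against 1.97 and 1.503 in naïve MON, 53.5 and 26.1 in UON at crush 3D against 2.05 and 1.28 in naïve UON, and 0.732 to 1.14 in all retina libraries. The S-phase median was 67.7 and 80.7 CPM in MON at crush 3D against 6.73 and 7.33 in naïve MON. In UON it was 24.7 and 29.8 CPM at crush 3D against 8.27 and 4.73 in naïve UON.

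In MON at glaucoma 3D the levels differed between the pools, and edgeR called none of the 49 genes (0% of all genes tested were called higher). Before adjustment 33 were higher with p under 0.05, against 4.88% of all genes, and DESeq2 called 21 higher, against 1.82%. The median log2 fold change was 2.18, with 2.51 over the mitotic and 1.09 over the S-phase genes. Both glaucoma pools lay above both naïve pools for 33 genes, against 18% of all genes. The highest value was that of Ccnb2, 4.32 (SE 1.04, adjusted p = 0.389), whose levels were 1.13 and 0 CPM in naïve MON and 16.5 and 3.25 at glaucoma 3D.

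The female pool was above the male pool at glaucoma 3D for 34 of 34 mitotic and 15 of 15 S-phase genes, by a median of 6.02-fold and 2.81-fold. The median mitotic level was 19.7 CPM in the female and 3.401 in the male pool, against 1.97 and 1.503 in naïve MON. Without the male pool the median log2 fold change of the 49 was 2.95, and without the female pool 0.95, with none called in either case. Of the marker lists, fibroblasts summed to 465 CPM in the female and 1664 in the male pool, microglia to 2629 and 3574, mature oligodendrocytes to 112326 and 167532, and 8 housekeeping genes to 8393 and 5476, while monocytes and neutrophils summed to 14.8 and 6.87, red blood cells to 710.0 and 384 and photoreceptors to 77.7 and 10.7. Their part in the difference between the pools was not tested.

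At glaucoma 2W and 6W in MON the median log2 fold changes of the 49 genes were 0.15 and 0.46, and 1 library moved them. Without the male naïve MON pool they were 0.87 and 1.14, with 40 and 45 of 49 above 0, and without the female one -0.27 and -0.07. Without the male glaucoma 2W pool the 2W median was -0.16, and without the female one 0.53. edgeR called none at either time (0% and 0% of all genes called higher). At an unadjusted p under 0.05, 2 were higher at 2W, against 5.17% of all genes, and 3 at 6W, against 2.24%, and DESeq2 called none. Both pools lay above both naïve pools for 9 genes at 2W, against 20%, and for 17 at 6W, against 20.3%. The extremes were Ndc80 at 2.06 (SE 0.91, adjusted p = 0.582) and Bub1 at -2.30 (SE 2.05, adjusted p = 0.805) at 2W, and Ube2c at 2.64 (SE 1.02, adjusted p = 0.849) and E2f1 at -1.48 (SE 0.79, adjusted p = 0.849) at 6W. Ndc80 was at 0.796 and 0 CPM in naïve MON and 2.09 and 0.518 at glaucoma 2W, and Bub1 at 0.239 and 0.481 and 0.592 and 0. Ube2c was at 1.43 and 0 CPM in naïve MON and 2.63 and 0.968 at glaucoma 6W, and E2f1 at 0.907 and 1.26 and 0.568 and 0.329. Each of these pairs but that of E2f1 overlapped the naïve pair. The female pool at 6W, a library with epithelial markers, was above the male pool for 32 of 34 mitotic genes. At 2W the male pool held such markers, and the female pool was the higher one for 27 of 34. The part of the cells with these markers was not tested. From 3D to 2W of glaucoma in MON the median difference was -2.24, with 0 called (0% of all genes), 32 lower at an unadjusted p under 0.05, against 2.41%, and 13 called lower by DESeq2, against 0.348%. That median was -0.77 without the female and -2.90 without the male glaucoma 3D pool. It was -1.47 without the female and -2.48 without the male glaucoma 2W pool.

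In UON the mitotic genes also stood above naïve levels at crush 3D, without an edgeR call. For 48 of the 49 genes both UON pools at crush 3D lay above both naïve UON pools, against 17.7% of all genes, and the median log2 fold change was 3.91, or 14.98-fold. edgeR called none (0% of all 21368 genes tested were called higher), the smallest adjusted p of the 49 being 0.0758, that of Cenpa at 6.00 (SE 0.46). At an unadjusted p under 0.05, 38 were higher, against 2.07% of all genes, and DESeq2 called 30 higher, against 0.844%. The mitotic genes had a median of 4.56, with 33 of 34 higher at an unadjusted p under 0.05, and the S-phase genes a median of 1.04, with 5 of 15.

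The highest log2 fold changes in UON at crush 3D were those of Ccnb2, 6.88 (SE 0.69, adjusted p = 0.0986), and Foxm1, the transcription factor of mitotic genes, 6.33 (SE 0.81, adjusted p = 0.140). Ccnb2 was at 0.963 and 0.167 CPM in naïve UON and 59.6 and 48.5 at crush 3D, and Foxm1 at 0.515 and 0.0955 and 23.0 and 17.9. The lowest was that of Mcm4, -0.29 (SE 0.36, adjusted p = 1), from 51.6 and 53.9 to 50.8 and 37.3 CPM. By role, the medians were 4.64 for the passenger complex, centromere and kinetochore, 4.35 for the mitotic kinases, 4.34 for the checkpoint and anaphase complex, 4.11 for spindle and cytokinesis, 2.63 for nucleotide synthesis and 0.57 for the helicase, clamp and histone chaperone.

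In single UON libraries, Mki67 was at 4.503 and 0.788 CPM in naïve UON and at 98.0 and 45.2 at crush 3D, 6.97 and 0.912 at crush 2W, 32.6 and 31.4 at glaucoma 3D, 7.30 and 0.516 at glaucoma 2W and 3.73 and 2.82 at glaucoma 6W. Top2a was at 5.26 and 2.27 CPM in naïve UON, then 212 and 62.6 at crush 3D, 8.38 and 13.3 at crush 2W, 56.5 and 66.3 at glaucoma 3D, 9.15 and 4.00 at glaucoma 2W and 4.43 and 1.86 at glaucoma 6W. The levels of Cdk1 in naïve UON were 2.62 and 1.31 CPM, then 46.8 and 48.2 at crush 3D, 5.07 and 17.8 at crush 2W, 27.6 and 22.3 at glaucoma 3D, 4.26 and 4.65 at glaucoma 2W and 2.50 and 0.793 at glaucoma 6W. At 3D of either injury all 4 pools of these genes lay above both naïve pools, and the female pool was the higher one at crush 3D for Mki67 and Top2a.

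Ccnb1 was at 1.86 and 2.13 CPM in naïve UON, then 159 and 67.8 at crush 3D, 3.29 and 0.155 at crush 2W, 35.9 and 47.3 at glaucoma 3D, 4.31 and 0.516 at glaucoma 2W and 1.76 and 0.793 at glaucoma 6W. Birc5 was at 2.04 and 1.65 CPM in naïve UON, then 22.1 and 40.4 at crush 3D, 3.72 and 2.41 at crush 2W, 18.04 and 10.97 at glaucoma 3D, 1.97 and 0 at glaucoma 2W and 1.63 and 1.66 at glaucoma 6W. Cenpa was at 1.43 and 0.693 CPM in naïve UON, then 74.7 and 55.3 at crush 3D, 3.53 and 2.62 at crush 2W, 26.5 and 26.1 at glaucoma 3D, 2.62 and 2.78 at glaucoma 2W and 1.32 and 0.867 at glaucoma 6W. In these 3 genes too every pool at 3D of either injury lay above both naïve pools.

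Rrm2 was at 5.44 and 4.06 CPM in naïve UON, then 71.6 and 57.2 at crush 3D, 11.6 and 1.44 at crush 2W, 28.7 and 41.1 at glaucoma 3D, 3.59 and 1.29 at glaucoma 2W and 3.97 and 3.96 at glaucoma 6W. Mcm5 was at 8.27 and 4.73 CPM in naïve UON, then 16.9 and 28.0 at crush 3D, 8.87 and 4.502 at crush 2W, 22.8 and 10.6 at glaucoma 3D, 8.04 and 6.78 at glaucoma 2W and 6.64 and 3.96 at glaucoma 6W. Pcna was at 55.2 and 55.0 CPM in naïve UON, then 57.0 and 75.1 at crush 3D, 73.2 and 132 at crush 2W, 72.3 and 53.3 at glaucoma 3D, 52.9 and 51.2 at glaucoma 2W and 59.2 and 67.8 at glaucoma 6W. For Rrm2 and Mcm5 the 4 pools at 3D lay above both naïve pools, while for Pcna those at glaucoma 3D lay on either side. Ccne1 was at 2.35 and 3.61 CPM in naïve UON, then 3.73 and 17.7 at crush 3D, 6.82 and 0.990 at crush 2W, 3.504 and 3.57 at glaucoma 3D, 4.53 and 0 at glaucoma 2W and 4.09 and 3.81 at glaucoma 6W, so that the male crush 3D pool alone stood out. Anln was at 23.4 and 23.0 CPM in naïve UON, then 106 and 50.2 at crush 3D, 29.4 and 25.9 at crush 2W, 74.8 and 39.2 at glaucoma 3D, 14.6 and 9.42 at glaucoma 2W and 29.7 and 40.6 at glaucoma 6W.

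The order of the UON pools at crush 3D differed between the phases. The female pool was the higher for 30 of 34 mitotic genes, by a median of 2.02-fold, while the male pool was the higher for 10 of 15 S-phase genes. Monocyte and neutrophil markers were higher in 1 of these pools: their sum over 10 genes was 5.93 CPM in the female and 60.0 in the male pool, against 4.08 and 4.56 in naïve UON, and Ly6g was at 0 in all 4 libraries. Their part in the result was not tested. By TPM, the highest of the 49 in UON at crush 3D were Cdc20 (126, mean of 2 pools), Ube2c (98.5), Ccnb1 (91.5), Cenpa (89.95) and Pbk (75.0), and in naïve UON Pcna (63.2).

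At crush 2W in UON the median log2 fold change over the 49 genes was 0.09, or 0.48 without the male and -0.27 without the female crush 2W pool and -0.04 without the female and 0.18 without the male naïve pool, and edgeR called none (0% of all genes called higher). At an unadjusted p under 0.05, 5 were higher, against 3.79% of all genes, and 4 lower, against 5.48%. DESeq2 called Cdk1 and Cenpa higher, against 1.17% of all genes, and Ccnf and Bub1 lower, against 1.55%. Both pools lay above both naïve pools for 14 genes, against 20.2%, and below for 7. The share of all genes below was not counted. The extremes were Cdk1 at 2.40 (SE 0.71, adjusted p = 0.489) and Ccnf, a cyclin that serves a ubiquitin ligase, at -5.28 (SE 1.10, adjusted p = 0.378). Ccnf was at 3.79 and 0.573 CPM in naïve UON and 0.107 and 0 at crush 2W. The female crush 2W pool was the higher for 28 of 34 mitotic genes, by a median of 3.92-fold. Under 1 CPM were 20 of the 34 in the male and 5 in the female pool. From 3D to 2W of crush in UON the median difference was -4.13, and edgeR called none of the 49 (0.00468% of all genes called lower), while 38 were lower at an unadjusted p under 0.05, against 3.69%, and DESeq2 called 30 lower, against 1.34%. Leaving out the female crush 2W pool raised the edgeR count to 11, and leaving out any other pool left it at 0.

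In UON at glaucoma 3D both pools lay above both naïve pools for 44 genes, against 16.6% of all genes, with a median log2 fold change of 2.92, or 3.33 over the mitotic and 0.39 over the S-phase genes. edgeR called none (0% of all genes), 36 were higher at an unadjusted p under 0.05, against 2.24%, and DESeq2 called 28 higher, against 0.431%. Ccnb2 was highest at 5.62 (SE 1.43, adjusted p = 1), from 0.963 and 0.167 CPM to 13.6 and 28.9, and Mcm4 lowest at -0.46 (SE 0.38, adjusted p = 1), at 34.7 and 40.8 CPM. Without the female glaucoma 3D pool, the edgeR count was 1.

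At glaucoma 2W and 6W the UON medians were 0.04 and -0.12 (at 2W 0.34 without the male and -0.29 without the female glaucoma pool and -0.06 without the female naïve pool, and at 6W -0.20 without the male naïve pool), and edgeR called none (0% and 0% of all genes), nor did DESeq2. At an unadjusted p under 0.05, 3 were higher and 1 lower at 2W, where 1.95% of all genes were higher and 1.62% lower, and 1 was higher and 1 lower at 6W, where 0.651% were higher and 1.36% lower. Both pools lay above both naïve pools for 7 genes at 2W, against 16.5%, and for 5 at 6W, against 15.4%. They lay below both naïve pools for 5 genes at 2W and 12 at 6W, with the share of all genes not counted. The extremes at 2W were Ckap2, a spindle protein, at 1.54 (SE 0.81, adjusted p = 1) (0.650 and 1.41 CPM in naïve UON and 4.72 and 1.03 at 2W) and Cdc25c at -3.14 (SE 1.54, adjusted p = 1), and at 6W Ccnb2 at 1.04 (SE 1.28, adjusted p = 1) and Cdc25c at -2.77 (SE 1.51, adjusted p = 1). Cdc25c was at 0.694 and 0.478 CPM in naïve UON, 0.0963 and 0 at 2W and 0 and 0.198 at 6W, and Ccnb2 at 0.963 and 0.167 CPM in naïve UON and 0.679 and 1.19 at 6W. From 3D to 2W of glaucoma in UON the median difference was -2.94, with 0 called by edgeR (0% of all genes), 36 lower at an unadjusted p under 0.05, against 2.87%, and 31 called lower by DESeq2, against 0.752%.

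**Figure D3:**
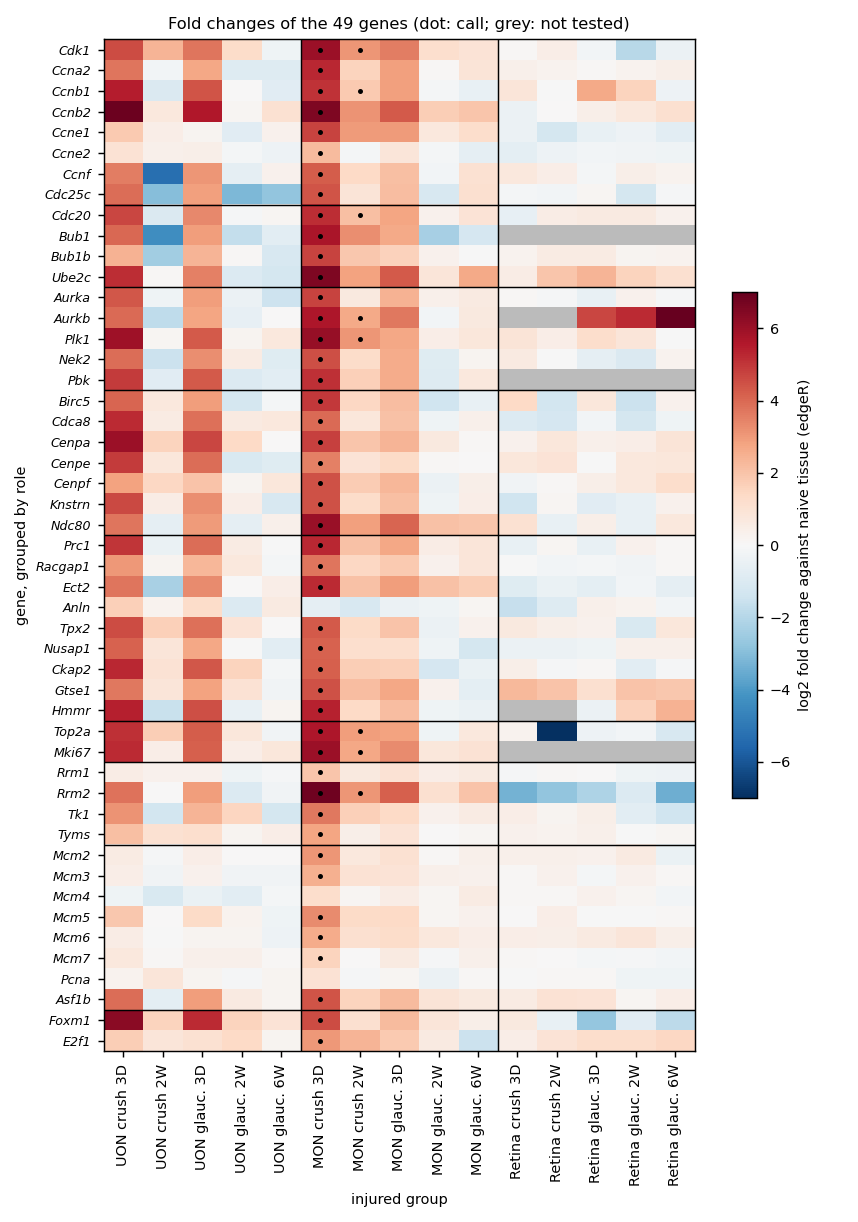
Log2 fold change against naïve tissue of the 49 genes, in rows by role, in the 15 comparisons of an injury time with naïve tissue, with a dot for each edgeR call, grey for genes not tested and colour saturating at 7. Dots are in the MON crush columns alone, 46 at 3D and 8 at 2W, while UON at 3D of crush and glaucoma has a similar colour in the mitotic rows without dots.

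Whether UON and MON differed in their response to crush was tested as the interaction of tissue and time. At crush 3D edgeR called none of the 49 differences (0.016% of all genes called). All 15 S-phase genes had a smaller log2 fold change in UON than in MON, 6 of them at an unadjusted p under 0.05 (Rrm2, Mcm6, Mcm2, Mcm3, Mcm4 and Rrm1), and of the 34 mitotic genes 2 were lower and 1 higher, where 3.49% of all genes were lower and 2.7% higher. Rrm2 differed most, by -2.94 (SE 0.90, adjusted p = 0.533), from 3.80 (SE 0.72) in UON and 6.81 (SE 0.51) in MON. Its level was 5.44 and 4.06 CPM in naïve UON against 0.764 and 1.08 in naïve MON. At crush 3D it was 71.6 and 57.2 CPM in UON against 87.1 and 99.4 in MON. The 2 tissues thus lay further apart in fold terms when naïve than at crush 3D. Mcm2, a subunit of the helicase that opens DNA for copying, differed by -2.44 (SE 0.56, adjusted p = 0.331) and Mcm6 by -2.04 (SE 0.43, adjusted p = 0.299). Anln differed the other way, by 2.34 (SE 0.46, adjusted p = 0.265), since it was at 106 and 50.2 CPM in UON at crush 3D, above naïve UON, and at 186 and 162 in MON, below naïve MON. DESeq2 called these last 3 differences, with Mcm2 and Mcm6 lower and Anln higher in UON, against 0.753% and 0.441% of all genes.

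The median difference was -1.35 over the S-phase and -0.46 over the mitotic genes. At crush 2W none was called by edgeR (0.004% of all genes), 18 were lower and 1 higher in UON at an unadjusted p under 0.05, against 6.62% and 3.09%, and DESeq2 called 5 lower, against 1.51%. The edgeR count was 12 without the female UON pool at crush 2W. For glaucoma at 3D, 2W and 6W no difference between UON and MON was called by edgeR (0%, 0% and 0% of all genes) or DESeq2, and at an unadjusted p under 0.05 there were 3 higher and 1 lower at 3D, against 2.24% and 2.76%, none at 2W and 1 lower at 6W, against 1.43%. At glaucoma 3D 32 of the 49 differences were above 0, but 21 without the male MON glaucoma 3D pool, 21 without the male naïve MON pool and 19 without the male UON glaucoma 3D pool.

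**Figure D4:**
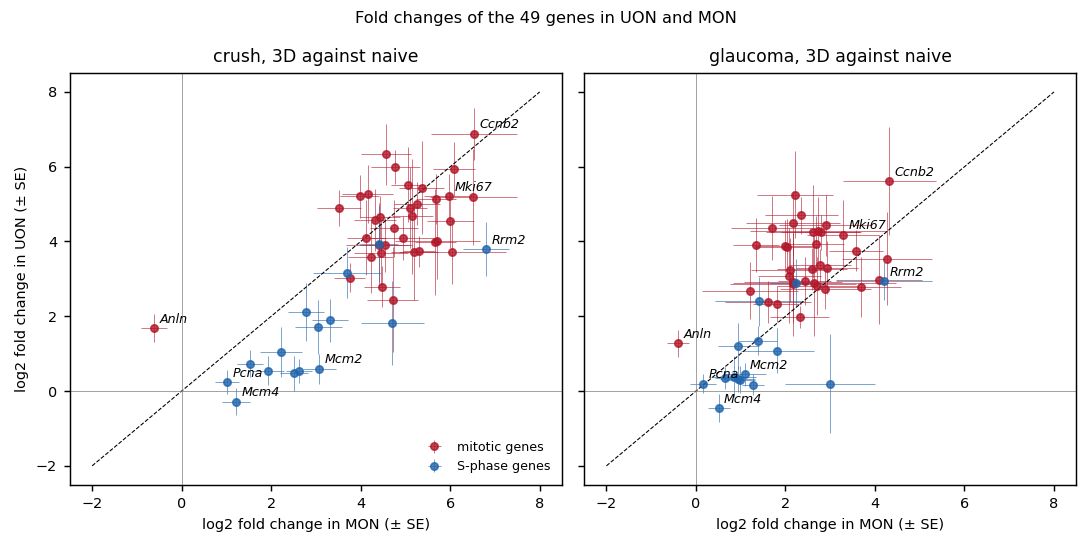
Log2 fold change against naïve tissue in UON (vertical) and MON (horizontal) of the 49 genes, with bars of 1 SE, at crush 3D and at glaucoma 3D, mitotic and S-phase genes in different colours and the dashed line marking equal change. At crush 3D the 15 S-phase genes lie below the line and Anln lies far above it, and at glaucoma 3D the genes lie on both sides of it.

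Crush and glaucoma were compared directly at the same time, as a contrast that takes no naïve level, in a fit of all 12 libraries of the tissue that share 1 estimate of the spread. In MON at 3D the 49 genes had a median log2 difference of 2.12 in favour of crush. That median was 1.29 without the male and 3.09 without the female glaucoma 3D pool. It was 2.72 without the female and 1.39 without the male crush 3D pool. Of the 49, 43 were higher at an unadjusted p under 0.05, against 4.25% of all genes. But edgeR called none (0.0162% of all genes) and DESeq2 called 29 higher, against 1.63%. The edgeR count was 6 without the female glaucoma 3D pool and 2 without the female crush 3D pool. In MON at 2W the median was 1.40, with 0 called by edgeR (0.0485% of all genes), 19 higher and 1 lower at an unadjusted p under 0.05, against 3.7% and 3.81%, and 5 called higher by DESeq2, against 0.783%. In UON at 3D all 49 differences were above 0, with a median of 0.87, of which edgeR called 0 (0% of all genes), 2 were higher at an unadjusted p under 0.05, against 0.568%, and DESeq2 called 0. That median was 0.29 without the female and 1.56 without the male glaucoma 3D pool. It was 1.01 without the female and 0.60 without the male crush 3D pool. In UON at 2W edgeR again called none (0.0418% of all genes), with 4 higher and 2 lower at an unadjusted p under 0.05, against 5.15% and 5.09%, and DESeq2 called 2 lower in crush, against 1.64%. Without the female crush 2W pool that edgeR count was 5.

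In the retina no gene of the 49 was called. Of the 49 genes, 44 to 46 passed the filter on low counts, and edgeR called 0 in each of the 5 comparisons with naïve retina, where 0.0176% of all genes were called higher at crush 3D, 0.075% at crush 2W and 0%, 0% and 0% at glaucoma 3D, 2W and 6W. At an unadjusted p under 0.05, 3, 4, 4, 2 and 2 were higher in that order, against 3.32%, 3.7%, 2.91%, 3.79% and 3.36% of all genes, and 1, 3, 0, 1 and 1 lower, against 3.02%, 5.28%, 2.5% and 2.3% in the 4 comparisons with any. Both pools lay above both naïve pools for 13, 11, 11, 12 and 13 genes, against 18%, 23.2%, 18%, 21.2% and 21.1%. DESeq2 called Knstrn, a kinetochore protein, lower at crush 3D, against 0.224% of all genes, and Top2a lower and Asf1b higher at crush 2W, against 0.956% and 0.534%. Knstrn was at 5.49 and 6.04 CPM in naïve retina and 2.23 and 2.09 at crush 3D. In TPM it was at 3.06 and 6.84 in naïve retina and 5.69 and 4.64 at crush 3D. On that scale it did not fall. Top2a was at 0.349 and 0.531 CPM in naïve retina and at 0 in both pools at crush 2W. That was at least 7.68-fold lower against a floor of 3 counts per library.

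In each retina library 16 to 21 of the 34 mitotic genes were under 1 CPM. Mki67 was at 0.116 and 0.177 CPM in naïve retina, then 0.297 and 0 at crush 3D, 0.188 and 0.0901 at crush 2W, 0 and 0.293 at glaucoma 3D, 0.198 and 0.157 at glaucoma 2W and 0.162 and 0 at glaucoma 6W. Ccnb1 was at 0 and 0.133 CPM in naïve retina, then 0.297 and 0.0818 at crush 3D, 0.251 and 0 at crush 2W, 0.348 and 0.495 at glaucoma 3D, 0.223 and 0.157 at glaucoma 2W and 0.0924 and 0 at glaucoma 6W. Rrm2 was at 0.252 and 0.354 CPM in naïve retina, then 0.198 and 0 at crush 3D, 0.314 and 0 at crush 2W, 0 and 0.147 at glaucoma 3D, 0.248 and 0 at glaucoma 2W and 0 and 0.0590 at glaucoma 6W. None of the 3 exceeded 0.495 CPM in any retina library.

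Top2a was at 0.322 and 0.757 at crush 3D, 0 and 0 at crush 2W, 0 and 0.678 at glaucoma 3D, 0.694 and 0.0785 at glaucoma 2W and 0.277 and 0.118 at glaucoma 6W. Cdk1 was at 1.05 and 0.177 CPM in naïve retina, then 1.43 and 0.0613 at crush 3D, 0.0627 and 0.766 at crush 2W, 0.812 and 0.220 at glaucoma 3D, 0.0992 and 0.157 at glaucoma 2W and 0.185 and 0.531 at glaucoma 6W. Birc5 was at 0.214 and 0.354 CPM in naïve retina, then 0.989 and 0.552 at crush 3D, 0.157 and 0.0901 at crush 2W, 1.66 and 0.0733 at glaucoma 3D, 0.347 and 0 at glaucoma 2W and 0.0924 and 0.502 at glaucoma 6W. These 3 stayed at or under 1.66 CPM. In all, 11 of the 49 genes were under 1 CPM in all 12 retina libraries.

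Cenpa, Mcm5 and Ccne1 were at 1.58 CPM or more in every retina library. Cenpa was at 2.25 and 2.59 CPM in naïve retina, then 3.04 and 2.72 at crush 3D, 3.75 and 4.84 at crush 2W, 4.64 and 2.02 at glaucoma 3D, 3.45 and 3.39 at glaucoma 2W and 5.38 and 3.75 at glaucoma 6W. Mcm5 was at 3.16 and 5.66 CPM in naïve retina, then 4.40 and 4.17 at crush 3D, 5.61 and 6.78 at crush 2W, 3.94 and 4.64 at glaucoma 3D, 4.39 and 4.34 at glaucoma 2W and 5.13 and 4.07 at glaucoma 6W. Ccne1 was at 5.03 and 5.24 CPM in naïve retina, then 4.5003 and 3.23 at crush 3D, 3.25 and 1.58 at crush 2W, 2.32 and 4.88 at glaucoma 3D, 4.46 and 3.49 at glaucoma 2W and 3.14 and 2.86 at glaucoma 6W. Over 10 CPM in all 12 libraries were 6 genes: Pcna, Bub1b, Ccna2, Rrm1, Tyms and Mcm7. Pcna was at 90.5 and 88.5 CPM in naïve retina, then 88.3 and 88.0 at crush 3D, 108 and 89.2 at crush 2W, 84.8 and 107 at glaucoma 3D, 81.4 and 65.3 at glaucoma 2W and 77.1 and 68.8 at glaucoma 6W. Bub1b was at 35.7 and 39.1 CPM in naïve retina and between 35.7 and 60.0 in the 12 libraries, and Ccna2 between 15.2 and 28.0.

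For genes with a retinal level the transcripts were looked at. Of the Bub1b counts in the retina, 98.5% were of the protein-coding transcript Bub1b-201. Of the Cdc25c counts, 95.1% were of transcripts of non-coding type. Among others, that share in retina was 77.0% for Tk1, 67.6% for Cenpa, 67.4% for Prc1 and 51.6% for Tyms. For Cenpa it was also 78.5% in MON and 69.2% in UON. Ccna2 shares 510 exon bases, 12.5% of its exons, with Exosc9 on the opposite strand, and since no strand setting of the counting is given in the sources used here, reads of such partners cannot be told apart. The same holds for Ube2c and Tnnc2 (22.8% of the exon bases of Ube2c), Ccne2 and Ints8 (17.4%), Cdc25c and Gm3550 (12.7%), Prc1 and Rccd1 (11.1%) and Mcm7 and Ap4m1 (7.25%).

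The response to crush at 3D was larger in MON than in retina for 11 of the 49 genes by the test of that difference, against 0.232% of all genes called. They were Knstrn at 5.79 (SE 0.54, adjusted p = 0.0133), Prc1 at 5.77 (SE 0.66, adjusted p = 0.0251), Cdc20 at 5.75 (SE 0.76, adjusted p = 0.0385), Top2a at 5.39 (SE 0.63, adjusted p = 0.0374), Plk1 at 5.15 (SE 0.57, adjusted p = 0.0251), Ccna2 at 4.91 (SE 0.43, adjusted p = 0.0108), Cdca8 at 4.87 (SE 0.62, adjusted p = 0.0358), Nusap1 at 4.52 (SE 0.61, adjusted p = 0.0385), Bub1b at 4.44 (SE 0.62, adjusted p = 0.0391), Asf1b at 3.80 (SE 0.50, adjusted p = 0.0385) and Racgap1 at 3.74 (SE 0.50, adjusted p = 0.0385). Before adjustment 44 were higher in MON with p under 0.05, against 6.83% of all genes, and DESeq2 called 39 higher, against 4.41%. The count was 26 without the female MON pool at crush 3D, 1 without the male naïve MON pool, and 0 without any other 1 of the 8 pools. With the pools of mice as a block, since the same mice gave both tissues, 8 were called. For UON against retina edgeR called none (0% of all genes), with 29 higher at an unadjusted p under 0.05, against 2.43%, and 18 called higher by DESeq2, against 0.505%.

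In naïve tissue most of the 49 genes were not called between UON and MON. Only Anln, lower in UON by -3.66 (SE 0.32, adjusted p = 0.00160), and Cenpf, a large kinetochore protein higher in UON by 2.21 (SE 0.50, adjusted p = 0.0352), were called, 2 of 49 where 9.63% of all genes were. Cenpf was at 12.2 and 11.4 CPM in naïve UON, 2.01 and 3.07 in naïve MON and 0.582 and 0.641 in naïve retina. Against retina, 13 genes were higher and 5 lower in UON, where 31.7% of all genes were called, and 9 were higher and 4 lower in MON, where 27.6% were. Lower in both nerve tissues were Bub1b (-3.44 in UON and -4.53 in MON), Cdc25c (-3.14 and -3.64) and Ccna2 (-2.22 and -3.21). Knstrn and Tyms were lower in UON, by -2.02 (SE 0.61, adjusted p = 0.0395) and -1.71 (SE 0.53, adjusted p = 0.0432), and Ccne1 was lower in MON, by -2.88 (SE 0.65, adjusted p = 0.0138). Without 1 pool at a time, 1 to 2, 11 to 16 and 7 to 10 genes were called in these 3 comparisons, the lowest counts being those without the male naïve retina pool for UON against retina and without the female one for MON against retina. Between UON and MON 1 gene was called without either naïve UON pool or without the male naïve MON pool.

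Higher in both were Anln (4.81 in UON and 8.47 in MON), Cenpf, Mcm3, Mcm4, Mcm6, Mki67, Ccnb1, Pbk and Aurkb. Cdc20, Top2a, Rrm2 and Ube2c were called higher in UON alone, and whether MON differed from UON there was tested above, with no call. Aurkb, the kinase of the chromosomal passenger complex, was at 0 in both naïve retina pools and so at least 29.5-fold higher in UON and 9.99-fold higher in MON, with 3 counts per library as the floor.

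Further cell cycle genes were counted in the same fits. In MON at crush 3D 3.61% of all 19988 genes tested were called higher and 131 genes lower. In MON at crush 3D, 17 of 22 other kinetochore, condensin and mitotic genes rose (median log2 fold change 3.46), among them Cdca3 at 5.52 (SE 0.70) and Cdca2 at 5.26 (SE 0.80). Of 25 genes of origin licensing and the replication fork, 12 rose (median 1.95), with the licensing factor Cdt1 at 5.19 (SE 0.52) highest and Mcm10 at 4.79 (SE 0.68) next. Of 17 pocket proteins, E2F factors and DREAM subunits, 4 rose (median 0.94): E2f2 at 6.66 (SE 0.92), E2f7 at 4.25 (SE 0.63), Mybl2, which is B-Myb, at 4.12 (SE 0.76) and Rbl1 at 2.08 (SE 0.37).

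Of 8 genes listed as G1 cyclins and kinases, 4 rose (median 1.42). They were Cdk6 at 3.49 (SE 0.43), Cdk2 at 1.89 (SE 0.33), cyclin D1, Ccnd1, at 1.78 (SE 0.31) and Cdc25b at 2.21 (SE 0.34). Cdc25b is on that list but is a phosphatase, neither a cyclin nor a kinase. Of 11 CDK inhibitors and p53 genes 10 were tested (median 0.87). Cdkn3, a phosphatase of Cdk1 and Cdk2, rose by 5.23 (SE 0.76), Cdkn2c by 1.61 (SE 0.34) and Trp53, which is p53, by 1.21 (SE 0.26), while Cdkn1c, the CDK inhibitor p57, fell by 1.94 (SE 0.41, adjusted p = 0.0456). At crush 2W, where 2.13% of all genes were called higher, 4 of these genes still were. They were E2f2 at 4.71 (SE 0.86), Cdt1 at 3.53 (SE 0.49), Spc25 at 1.97 (SE 0.34) and Ccnd1 at 1.66 (SE 0.31).

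In UON at crush 3D none of these genes was called by edgeR, which called none of all 21368 genes tested. Before adjustment 17 of 22 kinetochore and mitotic genes were higher with p under 0.05 (median 3.24), against 5 of 25 licensing and fork genes (median 1.15), 3 of 17 pocket protein and E2F genes (0.14), 3 of 10 inhibitors (0.40) and 0 of the 8 genes on the G1 list (0.18), where 2.07% of all genes were. The medians at glaucoma 3D were 2.42, 0.31, 0.08, 0.28 and -0.04 in UON and 1.58, 0.75, 0.46, 0.46 and 0.64 in MON, in the same order, with none called.

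Over the 24 UON and MON libraries, the genes outside the 49 whose log2 CPM followed the mean of the mitotic genes most closely were Cdca2 (Pearson r = 0.943), Kif20a (0.938), Incenp (0.928), Troap (0.926), Kif18b (0.925), Pimreg (0.925), Ska3 (0.922), Tacc3 (0.921), Kif11 (0.920) and Cdca3 (0.919). Kif20a, Kif18b and Kif11 are kinesin motors of the spindle. Of the 49 themselves, of which the 34 mitotic genes are part of that mean, the lowest r were those of Anln (0.245), Pcna (0.364), E2f1 (0.514) and Mcm4 (0.517). These libraries share injury, time and depth, so the values describe likeness over these points and were not tested.

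Marker lists of cells that could divide or enter were set beside the result. In MON, 10 microglia markers summed to 1840 and 1938 CPM in naïve tissue, 3711 and 4251 at crush 3D and 8537 and 5193 at crush 2W, none at 0, with 1 and 4 of 10 called higher at crush 3D and 2W. Monocyte and neutrophil markers summed to 2.28 and 5.23 CPM in naïve MON, where Ly6g, Elane, Camp and Ngp were at 0 in both pools, and to 19.0 and 50.9 at crush 3D, where Ly6g and Camp were, with 1 of 5 tested called higher. Oligodendrocyte precursor markers (8 genes) summed to 1693 and 1446 CPM in naïve MON and 1034 and 832 at crush 3D, with none called, astrocyte markers (8) to 18801 and 13249.9 CPM in naïve MON and 14975 and 8397 at crush 3D, with none called, and endothelial markers (7) to 133 and 120.0 CPM in naïve MON and 188 and 240.0 at crush 3D, with none called. Of the other lists in MON at crush 3D, fibroblast markers had a median log2 fold change of 0.92, with 1 of 7 called lower. For lymphocyte markers it was 2.58, with none of 3 tested called, and for housekeeping genes 0.46, with 1 of 8 called higher. In UON at crush 3D none of these markers was called, but edgeR called none of all 21368 genes there. The lack of marker calls therefore decides nothing. The microglia sum was 1265 and 1893 CPM against 1332 and 1093 in naïve UON. Median log2 fold changes were 0.30 for microglia, 3.48 for monocytes and neutrophils, 0.19 for oligodendrocyte precursors, -0.43 for astrocytes and 0.06 for endothelium. Their part in the levels of the 49 genes was not tested.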

How the data were processed

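Libraries made with an ultra-low input kit from pooled RNA of UON, MON and retina were sequenced as read pairs by the study. Alignment by the authors used HISAT2 v2.2.1 and the GRCm38 build, and transcripts of Gencode M25 were quantified in StringTie v1.3.0. The deposited gene and transcript values are estimated counts that the authors made with the StringTie count script from coverage and transcript length, without normalization, and they were rounded here. The deposited TPM are the authors' StringTie values, scaled for transcript length and library; 25 of them lay below 0 and were set to 0. The groups were read from the sample titles, and all 36 libraries were used.

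Counts were tested with edgeR 4.0.16 in R 4.3.3 (limma 3.58.1): TMM factors, genes kept by filterByExpr (at least 10 counts, total at least 15), quasi-likelihood F tests, and p-values adjusted over all genes tested after Benjamini and Hochberg. For each tissue and injury the naïve libraries and all times were fitted with group and sex as terms. Crush was compared with glaucoma over the 12 libraries of a tissue, naïve tissues over 6 libraries, and differences between tissues as the interaction of tissue and time, with sex within tissue. SE is the log2 fold change divided by the root of the F value. The scripts were tested on simulated counts with 100 genes changed at each size and 1 spread for all genes. For MON at crush 3D, edgeR called 16% of genes changed by a log2 fold change of 2 and 57% by 3. For UON at glaucoma 3D it called 0% and 18%. A lack of edgeR calls therefore does not show a lack of change. With 16158723 to 78054205 counts per library, 3 counts, taken as the floor, stood for 0.047 to 0.194 CPM, which covers counting error only.

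The members and gene lists were chosen with earlier results of these data known. All 49 members are accounted for. Values by library are given for 10 of them (Mki67, Top2a, Cdk1, Ccnb1, Birc5, Cenpa, Mcm5, Rrm2, Pcna and Ccne1) and for the highest and lowest log2 fold change of each nerve comparison with naïve tissue. Named besides were members called in a naïve comparison of UON and MON or in a difference between tissues, up to 6 called genes of the further cell cycle lists and the 10 genes most like the mitotic members. Other members were named for their role after values were seen. The alternatives were DESeq2 1.42.0 (the tool of the study), DESeq2-type size factors in edgeR (RLE), no filter on counts, no sex term, 1 fit of all 36 libraries, the pools of mice as a block in the differences between tissues (by the study's methods the same mice gave all tissues), and leaving out each pool. Sequences came from RefSeq windows on GRCm38.p6. FPKM tables were not used here.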

Additional observations from a re-analysis of the deposited data

Results flagged for a closer look

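The 11 genes whose response to crush at 3D was called different between MON and retina by the interaction of tissue and time are listed for a closer look. The difference in log2 fold change, MON minus retina, was 5.79 for Knstrn, 5.77 for Prc1, 5.75 for Cdc20, 5.39 for Top2a, 5.15 for Plk1, 4.91 for Ccna2, 4.87 for Cdca8, 4.52 for Nusap1, 4.44 for Bub1b, 3.80 for Asf1b and 3.74 for Racgap1, with adjusted p of 0.0108 to 0.0391 by edgeR. Each of these genes was higher in both MON crush 3D pools than in both naïve MON pools. Knstrn fell in retina by counts but not by TPM, and its difference rests on the counts. Of the 11, Knstrn, Cdc20, Nusap1, Cdca8, Plk1, Prc1 and Ccna2 share exon bases with a gene on the opposite strand, from 2.38% of the exon bases of Knstrn to 12.5% of those of Ccna2.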

How the results depend on the processing

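No call was reversed by any setting. With RLE size factors none of the 33 counts of called genes moved by more than 1.5 times. With DESeq2 the genes called in UON were 30 at crush 3D, 4 at crush 2W, 28 at glaucoma 3D, 30 from crush 3D to 2W, 31 from glaucoma 3D to 2W and 2 for crush against glaucoma at 2W. In MON they were 25 at crush 2W, 21 at glaucoma 3D, 42 from crush 3D to 2W, 13 from glaucoma 3D to 2W, and 29 and 5 for crush against glaucoma at 3D and 2W. In the retina they were 1 and 2 at crush 3D and 2W, between naïve UON and MON 5, and in the differences 3 and 5 for UON against MON at crush 3D and 2W, 18 for UON against retina and 39 for MON against retina. The shares of all genes that DESeq2 called stand with each result above. For naïve UON against MON it called 1845 genes higher and 1848 lower of 21734. Without the filter on low counts, 17, 12, 20 and 10 were called in UON (crush 3D, glaucoma 3D, crush 3D to 2W, glaucoma 3D to 2W), 30, 1, 44, 26 and 7 in MON (crush 2W, glaucoma 3D, crush 3D to 2W, crush against glaucoma at 3D and 2W), and 4, 15, 3 and 35 for the differences UON against MON at crush 3D and 2W, UON against retina and MON against retina. Over all genes, calls higher and lower in the same order were 31 and 4, 23 and 4, 6 and 44, and 3 and 21 in UON, of 37507 to 39706. In MON they were 1104 and 377, 49 and 9, 558 and 420, 163 and 193, and 146 and 158, of 38991 to 42944. For the differences they were 108 and 221, 120 and 421, 4 and 1, and 355 and 150, of 43400 to 44838.

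With all 36 libraries in 1 fit, 11, 1, 2, 17, 3 and 1 were called in UON (crush 3D, crush 2W, glaucoma 3D, crush 3D to 2W, glaucoma 3D to 2W, crush against glaucoma at 2W), 0 and 14 in MON (crush 2W, crush 3D to 2W), 1 between naïve UON and MON, and 1 and 3 for UON against MON at crush 2W and UON against retina. Of all 30097 genes, those called higher and lower in UON were 26 and 0, 108 and 247, 5 and 0, 21 and 175, 2 and 25, and 173 and 234. In MON they were 458 and 204, and 131 and 98. Between naïve UON and MON they were 740 and 667, and for the differences 43 and 83, and 4 and 0. Without the sex term, 15 and 21 were called in MON (crush 2W, crush 3D to 2W), 2 for UON against retina and 29 for MON against retina. Over all genes, calls higher and lower were then 694 and 257, and 38 and 83, of 19988 in MON. For the differences they were 3 and 0 of 26137, and 287 and 94 of 25398. The median of the mitotic genes in MON at glaucoma 2W was 0.09 without the sex term. The other medians stayed within the spread between pools. With the pools of mice as a replicate block, MON against retina gave 8 and the other 6 differences 0. Over all genes MON against retina then gave 40 higher and 11 lower of 25398. The cause of these shifts was not tested.

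Without 1 pool at a time the counts ranged, in MON, from 0 to 45 at crush 3D, 0 to 29 at crush 2W, 16 to 43 from crush 3D to 2W and 0 to 6 for crush against glaucoma at 3D. In UON they ranged from 0 to 1 at glaucoma 3D, 0 to 11 from crush 3D to 2W and 0 to 5 for crush against glaucoma at 2W. Between naïve tissues they were 1 to 2 (UON against MON), 11 to 16 (UON against retina) and 7 to 10 (MON against retina), and for differences 0 to 12 (UON against MON at crush 2W) and 0 to 26 (MON against retina). In MON at crush 3D the count was 0 without either naïve pool and 45 or 41 without a crush pool. For the fits without 1 pool, no share over all genes was counted. Depth limits single levels under 3 counts, which stood for 0.047 to 0.194 CPM.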
